A study of Mus musculus with 8 samples.

Results

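Mt1 and Mt2 are the metallothionein genes that most mouse tissues express. They are 2 of the 48490 genes in the expression table and were chosen by name, because Mt1 had been seen to be higher in both β-catenin mutants than in wild type. The contrasts with wild type are therefore given as values without a test, and GoF against LoF is the comparison tested for both genes. Bulk RNA was measured in pools of 70 hand-picked tdTomato-positive cells from the proximal tibia of mice at postnatal day 5. All libraries carried Col10a1Cre, a recombinase driven by a gene of hypertrophic chondrocytes, and the Rosa26-Tdtomato reporter, so the picked cells are those in which this Cre had been active, and their descendants. The 2 GoF libraries had the genotype Col10a1Cre;Rosa26-Tdtomato;Ctnnb1-exon3 Δ/+, in which 1 allele gives a β-catenin that escapes degradation. The 4 LoF libraries were Col10a1Cre;Rosa26-Tdtomato;Ctnnb1Δ/Δ, and the 2 WT libraries were Col10a1Cre;Rosa26-Tdtomato without an engineered Ctnnb1 allele. Whether the libraries of a group came from separate animals is not stated. The p-values thus speak to the spread among libraries, which may be technical.

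The targeted gene, Ctnnb1, was at 72.0 and 86.7 FPKM in GoF, 67.3 to 81.1 FPKM in LoF, and 137 and 146 FPKM in WT. Both WT values stood above those of every mutant library, yet Ctnnb1 did not pass in any comparison (limma, adjusted p = 0.868 for GoF against LoF, 0.176 for GoF against WT and 0.11 for LoF against WT). Among all tested genes, 26.2% had every GoF library below WT and 9.88% had every LoF library below WT. The share with both was not counted. The table has 1 value per gene and does not show the deleted exons.

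Metallothioneins are small cytoplasmic proteins rich in cysteine that bind zinc and copper, buffer the free zinc of the cell and can scavenge reactive oxygen species. Their genes are switched on within hours by zinc and cadmium through the transcription factor MTF1, which binds metal response elements in their promoters. Glucocorticoids, oxidative stress and the acute-phase response through STAT3 also induce them in mouse tissues. In growth plate cartilage, zinc is needed by many matrix enzymes, among them the matrix metalloproteinases.

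Mt1 (ENSMUSG00000031765.8) lies on chromosome 8 from 94179082 to 94180327, and Mt2 (ENSMUSG00000031762.7) on the same chromosome from 94172664 to 94173568 (mm10). Both are on the plus strand and have 3 exons, and 5513 bases separate the end of Mt2 from the start of Mt1. The longest transcripts have 549 bases for Mt1 and 511 for Mt2. The coding sequences are shown because they say whether reads of one gene could be counted for the other. Both have 186 bases, of which 148 (79.6%) are the same and 38 differ, and the longest stretch shared by the whole transcripts has 20 bases. Capitals mark the bases that differ, and introns are left out.

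Mt1 coding sequence: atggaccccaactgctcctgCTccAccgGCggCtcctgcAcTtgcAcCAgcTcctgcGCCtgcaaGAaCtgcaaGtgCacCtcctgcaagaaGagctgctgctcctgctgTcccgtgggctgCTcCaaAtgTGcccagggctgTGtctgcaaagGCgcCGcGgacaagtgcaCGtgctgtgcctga
Mt2 coding sequence: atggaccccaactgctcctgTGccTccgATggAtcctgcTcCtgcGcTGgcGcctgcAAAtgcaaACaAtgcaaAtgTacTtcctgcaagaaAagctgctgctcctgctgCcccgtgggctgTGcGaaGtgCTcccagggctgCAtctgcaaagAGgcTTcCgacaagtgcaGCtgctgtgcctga

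The sequences upstream of both genes are shown because the genes share their known regulator. The windows come from RefSeq (GRCm38.p6, plus strand) and span the 250 bases before the RefSeq start, chr8:94172368-94172617 for Mt2 and, shortened to end where the annotated gene starts, chr8:94178839-94179081 for Mt1. The bases between the Mt2 window and the annotated Mt2 start were not searched. Capitals mark the core of the metal response element, searched as TGCACNC or TGCGCNC on both strands.

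Mt1 upstream: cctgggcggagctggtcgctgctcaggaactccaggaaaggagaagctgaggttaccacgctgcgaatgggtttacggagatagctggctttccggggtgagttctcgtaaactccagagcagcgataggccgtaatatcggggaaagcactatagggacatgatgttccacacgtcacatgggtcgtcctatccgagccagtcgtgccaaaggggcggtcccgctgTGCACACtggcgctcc
Mt2 upstream: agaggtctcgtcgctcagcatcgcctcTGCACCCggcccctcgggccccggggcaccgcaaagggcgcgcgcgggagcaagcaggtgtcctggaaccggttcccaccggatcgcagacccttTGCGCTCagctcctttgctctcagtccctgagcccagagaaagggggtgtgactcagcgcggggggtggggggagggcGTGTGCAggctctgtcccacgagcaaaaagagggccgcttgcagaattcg

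The Mt1 window held 1 core and the Mt2 window 3. The annotated first exons held a further 4 cores in the 229 bases before the Mt1 start codon and 3 in the 184 bases before that of Mt2. All 5 cores of Mt1 and all 6 of Mt2 lay upstream of a TATAAA box, which starts 101 bases before the start codon of Mt1 and 95 bases before that of Mt2. A shorter annotated Mt1 transcript starts 31 bases after the start of the TATAAA box of Mt1. The cores counted in the Mt1 first exon thus lie upstream of that start. The closest pair of cores in each first exon is shown with the cores in capitals.

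Mt1 first exon, chr8:94179173-94179193: GGGTGCAaacccttTGCGCCC
Mt2 first exon, chr8:94172676-94172701: GTGTGCAggcggcgggggcGCGTGCA

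Of 32851 RefSeq windows of 250 bases upstream of a transcript start (27025 genes), 21.4% held at least 1 such core and 1.3% at least 3. A core of the TCF/LEF element, through which β-catenin acts (searched on both strands as CTTTGAA or else as CTTTGAT, and further as CTTTGTA or else as CTTTGTT), was found in 14.8% of the windows, and in 0 of the windows and first exons of Mt1 and Mt2. The antioxidant response core TGACNNNGC was found in 10.2% of the windows, once upstream of Mt2 and once in the first exon of Mt1. These matches describe letters in short windows and say nothing of binding.

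Mt1 stood at 67.0 and 148 FPKM in the GoF libraries, at 81.0, 119, 96.1 and 143 FPKM in the LoF libraries, and at 21.7 and 23.9 FPKM in the WT libraries. FPKM is fragments scaled by transcript length and library total. Every mutant library lay above both WT libraries, while the GoF libraries enclosed the LoF range. Mt1 averaged 108 ± 57.5 FPKM in GoF (SD, n = 2), 110 ± 27.1 FPKM in LoF (SD, n = 4) and 22.8 ± 1.57 FPKM in WT (SD, n = 2). The GoF mean was 4.72-fold and the LoF mean 4.81-fold the WT mean. As differences of mean log2(FPKM + 1), used for all log2 fold changes here, these were 2.08 (SE 0.41) for GoF and 2.19 (SE 0.36) for LoF. Of the 12888 genes tested, 490 (3.8%) had all 6 mutant libraries above both WT libraries. In GoF against WT, 21.8% of tested genes had libraries that did not overlap with GoF higher and 26.2% with GoF lower, and in LoF against WT these shares were 11.5% and 9.88%. In 102 (0.791%) of the tested genes, all mutant libraries were above WT and both mutant means were at least 3-fold a WT mean above 0. Mt1 is one of these, as the way it was chosen implies.

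GoF and LoF did not differ in Mt1 beyond the spread between libraries. The log2 fold change of GoF over LoF was -0.10 (SE 0.36), with a 95% interval of -0.90 to 0.69 (limma, adjusted p = 0.887). Differences inside that interval remained compatible with these libraries, and the sign turned with median ratio scaling, where the value was 0.07. For scale, 11.6% of all tested genes differed between GoF and LoF at an adjusted p under 0.05, with 5.97% higher and 5.68% lower.

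Mt2 was listed at 0 and 22.6 FPKM in the GoF libraries, at 4.44, 19.3, 17.6 and 21.5 FPKM in the LoF libraries, and at 0 in both WT libraries. All 4 LoF libraries and GoF 2 thus had Mt2 above 0, and GoF 1 shared the value of the WT libraries. Mt2 averaged 11.3 ± 16.0 FPKM in GoF (SD, n = 2) and 15.7 ± 7.67 FPKM in LoF (SD, n = 4). It passed the filter on low values only through the LoF libraries and GoF 2, and no fold against WT is given, since WT was listed at 0. A value of 0 here need not mean no RNA. Read counts are unknown, and among 2887 genes with a longest transcript of 450 to 600 bases, which covers both metallothioneins, the 10th percentile of the values above 0 ranged from 1.29 to 2.00 FPKM over the libraries. The 5 libraries with Mt2 above 0 stood at 4.44 FPKM or more, beyond that percentile.

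The log2 fold change of Mt2 for GoF over LoF was -1.59 (SE 1.06, 95% interval -3.96 to 0.77, limma, adjusted p = 0.397). This value turns on the GoF libraries. Without GoF 1 it was 0.69, and without GoF 2 it was -3.87, where the 1 GoF library left was at 0. In that last fit Mt2 was above 0 only in the LoF libraries, so the value is a description.

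**Figure D1:**
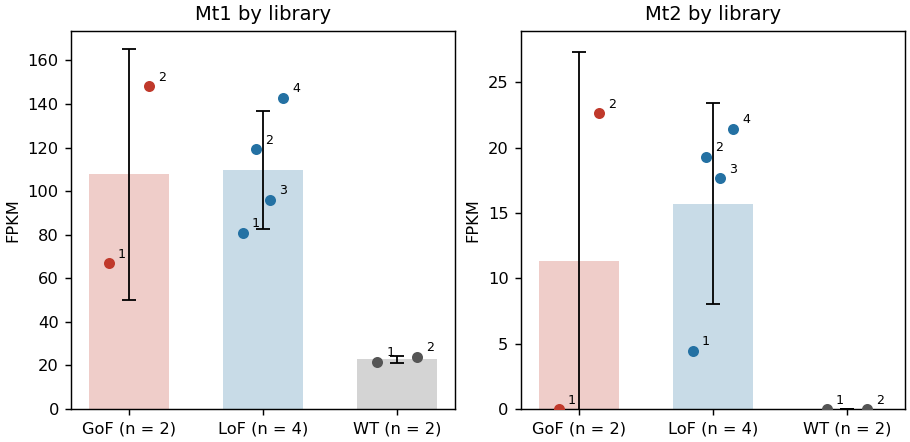
FPKM of Mt1 (left) and Mt2 (right) in each library, grouped as GoF, LoF and WT. Points are libraries with their replicate number, bars are group means and whiskers are 1 SD, cut at 0. For Mt1 all mutant libraries stand at 67.0 FPKM or more and both WT libraries at 23.9 FPKM or less, and for Mt2 GoF 1 and both WT libraries are at 0.

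Rank within a library does not depend on how libraries are scaled against each other. Mt1 exceeded 94.0% and 97.0% of the genes above 0 in the GoF libraries, 95.5% to 97.3% in the LoF libraries, and 84.6% and 86.6% in the WT libraries. It ranked 772 and 404 in GoF, 378 to 562 in LoF, and 2062 and 1798 in WT. The separation seen in FPKM was therefore also present in ranks. The ranks come from the same values that chose Mt1, so they are a description. Mt2 exceeded 85.1% of the genes above 0 in GoF 2, a percentage close to that of Mt1 in WT. In the LoF libraries it exceeded 54.7%, 83.4%, 77.8% and 83.1%, with LoF 1 the lowest.

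**Figure D2:**
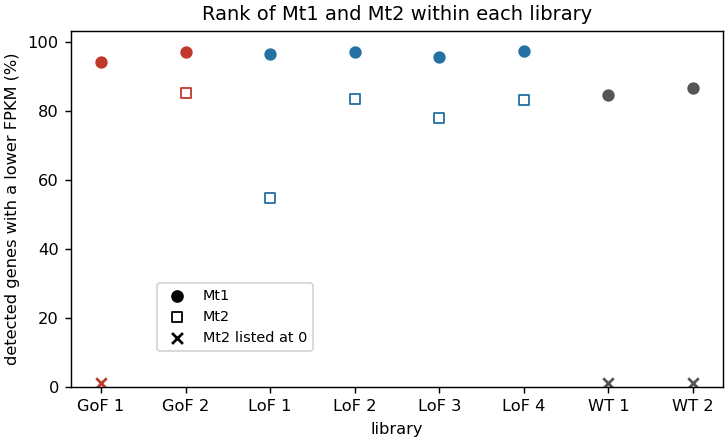
Percentage of the genes above 0 in a library that had a lower FPKM than Mt1 (filled circles) and Mt2 (open squares), with crosses for libraries where Mt2 was listed at 0. Mt1 sits at 94.0% or higher in every mutant library and at 86.6% or lower in the WT libraries, and Mt2 lies below Mt1 in every library.

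Mt1 was the more abundant of the pair in every library, on the length-scaled FPKM. The ratio of Mt1 to Mt2 was 6.56 in GoF 2 and 18.2, 6.17, 5.45 and 6.66 in the LoF libraries. It has no value in GoF 1 and the WT libraries, where Mt2 was listed at 0. Mt2 made up 0% and 13.2% of the sum of both genes in GoF, 5.2%, 13.9%, 15.5% and 13.1% in LoF, and 0% in both WT libraries. Of the 5 ratios, 4 thus lay close together, and LoF 1 stood apart. The mean log2 ratio with a pseudocount of 1 was 1.49 higher in GoF than in LoF, with p = 0.2 in an exact two-sided permutation test. Its 15 arrangements allow no p below 0.0667, so the test could not have passed, and the value of GoF 1 rests on the pseudocount. Across the 8 libraries, which share 3 groups, log2(FPKM + 1) of Mt1 and Mt2 correlated with Pearson's r = 0.885 and Spearman's rho = 0.976, as a description. By Pearson's r, 34 tested genes were at least as close to Mt1 as Mt2 was.

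Several measures moved with the groups. The 2 GoF libraries held Y-linked transcripts and the 2 WT libraries held Xist, so sex and genotype coincide in GoF against WT. With sex as a covariate, estimated through the LoF libraries, the log2 fold change of Mt1 for GoF over WT was 2.09 (SE 0.62). Among the LoF libraries, 2 held Xist. In these, LoF 1 and LoF 4, Mt1 was at 81.0 and 143 FPKM, against 21.7 and 23.9 FPKM in the WT libraries, which also held Xist. The log2 fold change of Mt1 for these LoF libraries over WT was 2.19. These are values of the contrast that chose Mt1 and carry no test. Chondrocyte markers (6 genes, none at 0 in every library) summed to 113 to 196 FPKM in GoF, 20.5 to 80.8 FPKM in LoF and 15.3 to 17.9 FPKM in WT. Erythroid markers (5 genes) summed to 895 to 1840 FPKM in GoF, 75.6 to 2270 FPKM in LoF and 2560 to 10600 FPKM in WT. Both sums thus separated the mutant libraries from WT, as Mt1 did. Among single chondrocyte markers, only Col9a1 and Comp did so, and among single erythroid markers, only Hba-a1 and Hbb-bt. Col2a1, for example, was at 7.39 FPKM in LoF 1 and 9.48 FPKM in WT 1. The part of both lists in the Mt1 difference was not tested. In pooled cells, fewer cells of a type and less RNA per cell cannot be told apart. The sums of the osteoblast and adipocyte markers differed in opposite directions between the mutants. Osteoblast markers summed to 14600 to 16100 FPKM in GoF, 743 to 1760 FPKM in LoF and 10800 to 11100 FPKM in WT. Ibsp, Sp7 and Alpl were higher in GoF than in WT, while Col1a1 and Bglap overlapped there. Runx2 did not follow the sum, at 33.6 and 19.9 FPKM in GoF, 19.4 to 33.6 FPKM in LoF, and 38.2 and 63.7 FPKM in WT. Adipocyte markers summed to 0.809 to 4.44 FPKM in GoF, 501 to 774 FPKM in LoF and 19.5 to 116 FPKM in WT. The hypertrophic chondrocyte markers (6 genes) summed to 1680 to 2580 FPKM in GoF, 12200 to 16800 FPKM in LoF and 5130 to 6500 FPKM in WT. Among them, Mmp13 was at 10.9 and 86.7 FPKM in GoF, 3110 to 4780 FPKM in LoF, and 1510 and 2110 FPKM in WT. Spp1 had the same order. Col10a1 did not, at 190 and 177 FPKM in GoF, 9.61 to 114 FPKM in LoF, and 6.24 and 20.5 FPKM in WT. Panx3 was also highest in GoF, at 252 and 344 FPKM, and was lowest in LoF, at 14.7 to 34.2 FPKM. Ihh was above 0 in both GoF libraries and listed at 0 in all LoF and WT libraries. Pth1r overlapped between GoF and LoF. Marrow stromal markers summed to 39.7 to 61.2 FPKM in GoF, 591 to 1840 FPKM in LoF and 96.8 to 348 FPKM in WT, and pericyte and smooth muscle markers to 3.94 to 4.84 FPKM in GoF, 35.2 to 69.7 FPKM in LoF and 22.6 to 34.7 FPKM in WT. The sums of these lists were lowest in GoF and highest in LoF, an order that Mt1 did not show. Single members did not all follow, as above for the hypertrophic markers. Lepr, a marrow stromal marker, was at 38.1 and 56.9 FPKM in GoF, 2.15 to 32.6 FPKM in LoF, and 51.3 and 27 FPKM in WT. The other marrow stromal markers were lowest in GoF. The part of these lists in the Mt1 values was not tested.

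The other metallothioneins of the cluster were listed at 0 in most libraries and stood at 4.14 FPKM or less in the rest. Mt3, known from brain, was at 0 and 4.09 FPKM in GoF, between 0 and 3.93 FPKM in LoF and at 0 in both WT libraries. It did not pass in any comparison (limma, adjusted p of 0.645 or higher). Mt4, known from stratified epithelium, was at 4.14 FPKM in GoF 2 and at 0 in the other libraries, and was not tested.

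To set the pair beside the systems that induce or use metallothioneins, 106 genes in 8 lists were examined, of which 89 were tested. Between GoF and LoF 4 were higher, 6 lower and 79 did not pass, 11.2% called against 11.6% of all tested genes. For GoF against WT, 1 was higher, 2 were lower and 86 did not pass, 3.37% called against 2.31% of all genes (1.41% higher and 0.9% lower). For LoF against WT, 2 were higher, 0 lower and 87 did not pass, 2.25% called against 1.23% (0.566% higher and 0.667% lower). The share called between GoF and LoF was thus near that of all tested genes, and the shares against WT rest on 3 and 2 genes. All 6 mutant libraries lay above both WT libraries for 8 of the 89, or 8.99%, against 3.8% of all tested genes. These were Fth1, Ftl1, Sqstm1, Gstp1, Nr3c1, Hspa1a, Hspa1b and Cebpb, named after their values were seen, and among them Fth1 in LoF against WT was the 1 contrast with WT that passed the test.

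The zinc list joins Mtf1 with the zinc exporters (Slc30 family) and zinc importers (Slc39 family). Of 24 members 16 were tested, 1 was called between GoF and LoF and 0 in either contrast with WT (limma), where 0 and 4 had an unadjusted p under 0.05 in GoF and LoF. The median log2 fold change of the tested members was 0.52 for GoF over LoF, -0.26 for GoF over WT and -0.50 for LoF over WT, beside medians of -0.17, -0.08 and 0.06 over all tested genes. Mtf1, the metal sensor, averaged 2.32 ± 2.56 FPKM in GoF, 4.30 ± 4.43 FPKM in LoF and 4.93 ± 2.99 FPKM in WT, and did not pass (adjusted p of 0.667 or higher). Slc30a1, the plasma membrane zinc exporter and a classic MTF1 target, averaged under 1 FPKM in every group and was not tested. Slc39a10, an importer that MTF1 represses, averaged 4.53 FPKM in GoF, 3.05 FPKM in LoF and 6.43 FPKM in WT. It did not pass (limma, adjusted p of 0.481 or higher). Its libraries stood at 4.32 and 4.74 FPKM in GoF, 0.618 to 4.43 FPKM in LoF, and 6.16 and 6.7 FPKM in WT. Every mutant library thus lay below both WT libraries. Of all tested genes, 26.2% did not overlap with GoF lower than WT and 9.88% with LoF lower than WT. The share of genes with both was not counted. Slc39a13, a zinc transporter of the secretory pathway needed for connective tissue and bone, was at 55.9 and 62.1 FPKM in GoF, 7.99 to 19.3 FPKM in LoF, and 30.1 and 32.9 FPKM in WT. The 3 groups did not overlap (between GoF and LoF, 14.8% of all tested genes did not overlap with GoF higher and 18.7% with GoF lower), and Slc39a13 was higher in GoF than in LoF (limma, adjusted p = 0.00389, with a log2 fold change of 2.28 and SE 0.37). Its levels thus stood in the order GoF, WT, LoF, unlike those of Mt1.

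The median log2 fold changes of the other lists for GoF over LoF, GoF over WT and LoF over WT were 0.45, 0.52 and -0.06 for copper, -0.86, 0.20 and 0.51 for iron, -0.16, 0.32 and 0.35 for glucocorticoid response, -0.07, 0.23 and 0.14 for heat shock, and -0.58, -0.11 and -0.27 for IL-6/STAT3. Of 10 tested copper genes, 1 was higher and 1 lower in GoF than in LoF. Cp, the copper-carrying ferroxidase ceruloplasmin, was at 21.8 and 28.0 FPKM in GoF, 142 to 193 FPKM in LoF, and 36.4 and 72.8 FPKM in WT. It was lower in GoF than in LoF (adjusted p = 0.000713, with a log2 fold change of -2.64 and SE 0.32) and higher in LoF than in WT (adjusted p = 0.0461, with a log2 fold change of 1.61 and SE 0.32). The call against WT ended under all 18 other settings (adjusted p up to 0.374). Slc31a1, the main copper importer, averaged 36.9 ± 0.394 FPKM in GoF and 13.8 ± 5.53 FPKM in LoF (adjusted p = 0.0322, with a log2 fold change of 1.43 and SE 0.37), which was not called in 11 of the 18 other settings.

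Of 9 iron genes, 3 stood lower in GoF than LoF. Fth1, the ferritin heavy chain that stores iron, was at 404 and 413 FPKM in GoF, 908 to 1360 FPKM in LoF, and 350 and 360 FPKM in WT. It was lower in GoF than in LoF (adjusted p = 0.00242, with a log2 fold change of -1.48 and SE 0.22) and higher in LoF than in WT (adjusted p = 0.0124, with a log2 fold change of 1.68 and SE 0.22), the second call ending in 7 of 18 settings. Its GoF mean was 1.15-fold the WT mean. Trf, the iron carrier transferrin, averaged 2.70 ± 2.10 FPKM in GoF, 59.6 ± 14.3 FPKM in LoF and 26.3 ± 15 FPKM in WT. It was lower in GoF than in LoF (adjusted p = 0.00042, with a log2 fold change of -4.13 and SE 0.45) and than in WT (adjusted p = 0.021, with a log2 fold change of -2.89 and SE 0.52, which was lost in 7 of 18 settings). Slc40a1, the iron exporter ferroportin, averaged 1.31 ± 0.68 FPKM in GoF, 19.7 ± 8.20 FPKM in LoF and 9.90 ± 1.92 FPKM in WT, and was lower in GoF than in LoF (adjusted p = 0.0019, with a log2 fold change of -3.12 and SE 0.44).

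In the oxidative stress list, which holds Nrf2 targets, superoxide dismutases and peroxidases, 0 of 19 tested genes were called in any comparison (limma), with 5, 1 and 1 at an unadjusted p under 0.05 in GoF against LoF, GoF against WT and LoF against WT. Its median log2 fold change was 0.07 for GoF over LoF, 0.34 for GoF over WT and 0.45 for LoF over WT. Hmox1, the heme-degrading enzyme induced by many of the same agents as Mt1, averaged 13.5 ± 5.80 FPKM in GoF, 47.4 ± 24.5 FPKM in LoF and 12.4 ± 3.25 FPKM in WT. All LoF libraries lay above the others, but neither comparison with LoF passed (adjusted p = 0.0528 for GoF against LoF and 0.134 for LoF against WT), although GoF against LoF passed with median ratio scaling (adjusted p = 0.0447) and with quantile normalization (adjusted p = 0.0362). GoF and WT overlapped.

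Among 13 tested glucocorticoid response genes, GoF had 2 lower than LoF and 1 lower than WT. Nr3c1, the glucocorticoid receptor, averaged 4.85 FPKM in GoF, 6.89 FPKM in LoF and 3.13 FPKM in WT and did not pass. Fkbp5, a receptor co-chaperone that glucocorticoids induce, averaged 1.21 FPKM in GoF, 0.57 FPKM in LoF and 0.176 FPKM in WT and did not pass either. Tsc22d3, the glucocorticoid-induced leucine zipper, averaged 6.67 FPKM in GoF, 20.7 FPKM in LoF and 12.1 FPKM in WT. It was lower in GoF than in LoF (adjusted p = 0.0417, with a log2 fold change of -1.44 and SE 0.39), and was not called in 16 of 18 settings. Angptl4, an inhibitor of lipoprotein lipase that PPAR factors also induce, was at 4.08 and 9.68 FPKM in GoF, 56.4 to 84.8 FPKM in LoF, and 23.6 and 29.9 FPKM in WT. It was lower in GoF than in LoF (adjusted p = 0.000478, with a log2 fold change of -3.27 and SE 0.37) and than in WT (adjusted p = 0.0498, with a log2 fold change of -1.90 and SE 0.42), the second call ending in 16 of 18 settings.

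Of 12 heat shock genes, 1 was called. Cryab, a small heat shock protein, averaged 53.7 ± 25.6 FPKM in GoF, 2.26 ± 2.40 FPKM in LoF and 10.7 ± 6.97 FPKM in WT, and was higher in GoF than in LoF (adjusted p = 0.00312, with a log2 fold change of 4.25 and SE 0.66). Of 9 tested IL-6/STAT3 genes, 1 was called. Lcn2, the iron-siderophore carrier lipocalin 2, was at 15.8 and 65.3 FPKM in GoF, 0 to 2.51 FPKM in LoF, and 0 and 2.65 FPKM in WT. It was higher in GoF than in LoF (adjusted p = 0.00505, with a log2 fold change of 4.61 and SE 0.79) and than in WT (adjusted p = 0.0483, with a log2 fold change of 4.13 and SE 0.92), and the call against WT ended in 15 of 18 settings.

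**Figure D3:**
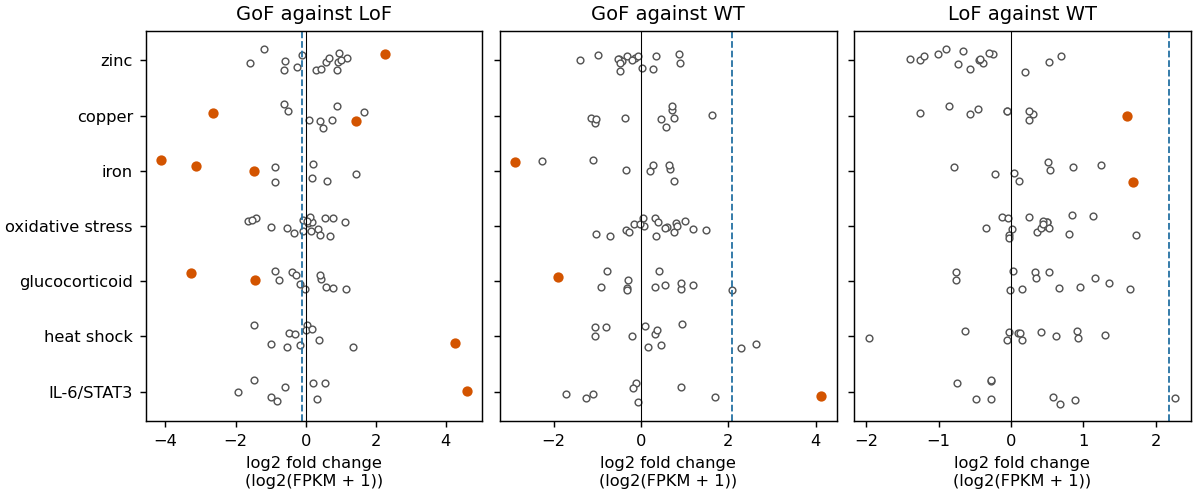
Log2 fold changes on the log2(FPKM + 1) scale of the tested members of 7 lists (circles, 1 per gene) for GoF against LoF, GoF against WT and LoF against WT. Filled orange circles passed the test, open circles did not, and the dashed line marks Mt1, at -0.10, 2.08 and 2.19. The orange circles lie on either side of 0 in GoF against LoF and number 3 and 2 in the contrasts with WT.

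The genes around the pair were examined for a change shared along the chromosome. The stretch within 250 kb of the interval that holds both genes was touched by 22 others, of which 14 were above 0 in some library and 11 were tested. In GoF against WT and LoF against WT 0 of the 11 were called (limma), with 2 and 3 at an unadjusted p under 0.05, beside 2.31% and 1.23% of all tested genes called. With so few genes, 0 calls says little. In GoF against LoF 3 of the 11 were called, beside 11.6% of all tested genes. Herpud1, a component of endoplasmic reticulum protein degradation, averaged 57.4 ± 8.56 FPKM in GoF, 7.79 ± 3.94 FPKM in LoF and 30.4 ± 9.71 FPKM in WT (adjusted p = 0.00287, with a log2 fold change of GoF over LoF of 2.83 and SE 0.43). Nudt21, a subunit of a pre-mRNA cleavage factor, averaged 15.5 ± 0.565 FPKM in GoF, 51.9 ± 11.8 FPKM in LoF and 36.3 ± 4.23 FPKM in WT (adjusted p = 0.00647, with a log2 fold change of GoF over LoF of -1.66 and SE 0.30). Gnao1, a G protein α subunit, averaged 0.20 ± 0.283 FPKM in GoF, 6.64 ± 4.93 FPKM in LoF and 0.71 ± 0.695 FPKM in WT (adjusted p = 0.0246, with a log2 fold change of GoF over LoF of -2.50 and SE 0.60, not called in 8 of 18 settings). The neighbours called between the mutants therefore moved in both directions. Bbs2, a cilium gene between Nudt21 and the pair, averaged 2.99 ± 1.64 FPKM in GoF and 2.54 ± 1.92 FPKM in LoF and was listed at 0 in both WT libraries. It did not pass (adjusted p = 0.786 for GoF against LoF, 0.281 for GoF against WT and 0.347 for LoF against WT), and it is named after its values were seen. RP23-98C9.5, which lies on the other strand over Mt2, was listed at 0 in all libraries, and the protocol does not mark strand.

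**Figure D4:**
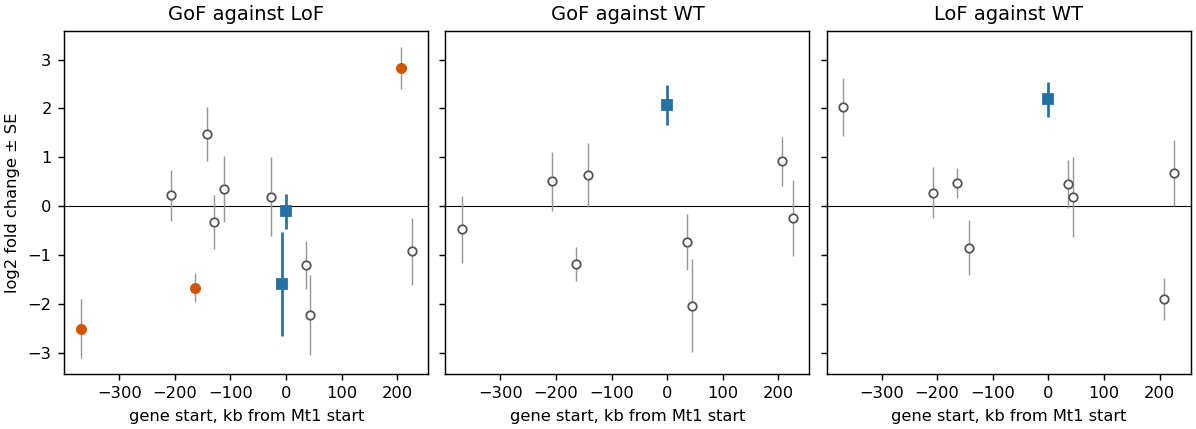
Log2 fold change ± SE on the log2(FPKM + 1) scale of the tested genes near Mt1, against the distance of their start from that of Mt1 in kb. Blue squares are Mt1 and, for GoF against LoF, Mt2, filled orange circles passed the test and open circles did not. Genes listed at 0 in both WT libraries are left out of the panels with WT, where Mt1 is at 2.08 and 2.19. The scale shrinks the fold changes of low genes such as Gnao1, whose mean in LoF was 9.35-fold that in WT.

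The genes most like Mt1 over the 8 libraries, by Pearson's r of log2(FPKM + 1), were S100a16 (0.983), Ndufb7 (0.971), Arpc3 (0.967), Fn1 (0.963) and Id2 (0.954). S100a16, a calcium-binding protein gene, averaged 29.6 ± 6.59 FPKM in GoF, 35.1 ± 5.86 FPKM in LoF and 8.95 ± 1.47 FPKM in WT. Its 3.31-fold and 3.93-fold higher means in GoF and LoF came nearest to the folds of Mt1. Fn1, the fibronectin gene, averaged 303 ± 56.8 FPKM in GoF, 289 ± 15.1 FPKM in LoF and 185 ± 20.7 FPKM in WT, so a high r went with a smaller fold. Id2, an inhibitor of basic helix-loop-helix factors, averaged 31.2 ± 13.2 FPKM in GoF, 28.7 ± 4.79 FPKM in LoF and 13.6 ± 3.04 FPKM in WT. Among the genes most like Mt2 were Mospd3 (0.953), Hacd2 (0.946), Rcor3 (0.946) and Txndc9 (0.930). Mospd3 averaged 15.6 ± 8.17 FPKM in GoF, 19.3 ± 5.53 FPKM in LoF and 9.73 ± 1.70 FPKM in WT. These genes were picked for their pattern among 12888, with 8 points each, so their values are a description.

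**Figure D5:**
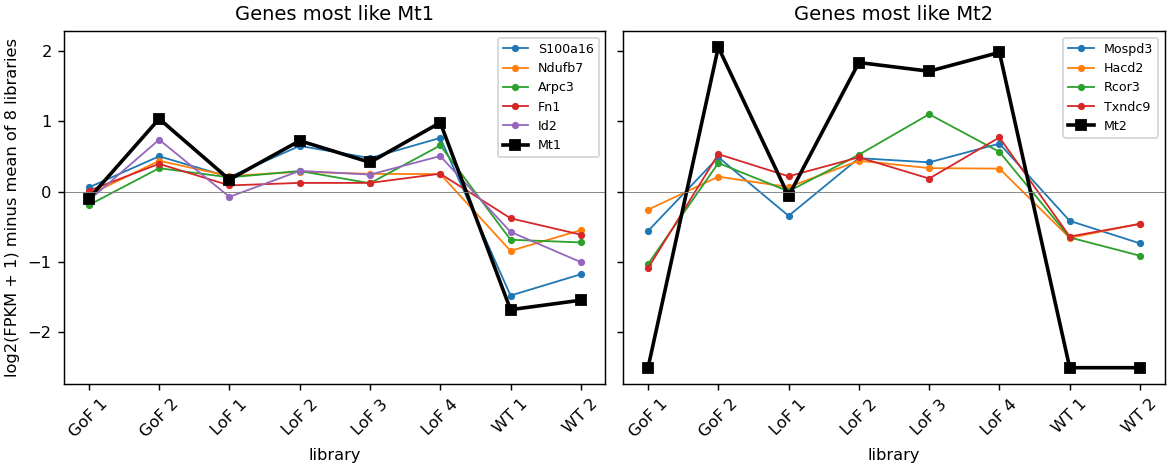
Log2(FPKM + 1) minus the mean over the 8 libraries for Mt1 (left, black) with its 5 most similar genes and for Mt2 (right, black) with 4 of its most similar genes, in each GoF, LoF and WT library. S100a16 follows Mt1 most closely in size, and GoF 1 falls with the WT libraries for Mt2.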

How the data were processed

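RNA from pools of 70 picked cells was amplified with Smart-seq2, per the labels' protocols, which does not mark strand. The authors deposited FPKM per gene and library. The submitters' processing notes name HISAT2, SAMtools 0.1.18, Cufflinks, HTSeq and mm10 without role or order, and the annotation release is not given in the sources used here. Because FPKM is scaled to the library total, very abundant genes reduce the values of the others. FPKM summed to 293194 to 382101 per library, with 12587 to 13944 genes above 0. No read counts are known, and no counting intervals are given.

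The 48555 lines held 65 repeats of a gene ID, leaving 48490 genes. Genes with at least 1 FPKM in at least 2 libraries (12888) were fitted together over the 3 groups as log2(FPKM + 1) in R 4.3.3 using limma 3.58.1 (a mean per group, a mean-variance trend, 10.1 total degrees of freedom). Benjamini-Hochberg adjustment ran over all 12888, two-sided, and a gene was called at an adjusted p under 0.05. On this scale, changes of low genes are understated. The code was tested on simulated data. The members, lists, named genes and tests were chosen with earlier results of these data known. Named were Mt1, Mt2, a fixed set of regulators and targets, up to 4 called genes per list and comparison by smallest p, called neighbours, and the 5 genes most like each member, leaving out predicted or unnamed genes. A gene of the last kind and a cell type marker are not reported here. Promoter windows are from RefSeq, and motifs were searched in Python 3.11.15. Other settings tried were a pseudocount of 0.1, quantile normalization, median ratio scaling, no filter, no trend, fitting only the groups compared, the replicate number as a block, sex from Y-linked transcripts or Xist as a covariate, LoF libraries with Y-linked transcripts or Xist alone, and leaving out each library. The fit with the Xist LoF libraries alone was added after the data were seen. Replicate numbers 3 and 4 occur only in LoF, so with the block the LoF values rest on LoF 1 and LoF 2.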

Additional observations from a re-analysis of the deposited data

Results flagged for a closer look

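In the LoF group, 1 of 4 libraries stood far from the others for Mt2 and for Tsc22d3, among 12 genes and ratios examined this way, where chance alone flags about 1 in 20. For Mt2, LoF 1 was low at 4.44 FPKM, with a gap to the nearest library of 0.869 of the group's range on the log2(FPKM + 1) scale, above Dixon's 95% critical value for 4 libraries. For Tsc22d3, LoF 3 was high at 33.2 FPKM, with a gap of 0.906 of the range.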

How the results depend on the processing

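For GoF against LoF, the log2 fold change of Mt1 was -0.10 as reported, 0.07 with median ratio scaling, 0.02 with the replicate number as a block and -0.67 to 0.46 when a library was left out, and it passed in none of 18 settings (adjusted p 0.447 to 0.985). That of Mt2 was -3.87 to 0.69 when a library was left out. The log2 ratio of Mt1 to Mt2 was 3.06 with a pseudocount of 0.1 and -0.22 to 3.20 when a library was left out. Against WT, the difference of Mt1 was 1.51 to 2.65 in GoF and 2.05 to 2.32 in LoF when a library was left out. For Mt2, with WT listed at 0, the differences on this scale are set by the pseudocount and are neither folds nor bounds. They were 3.91 in GoF and 7.08 in LoF at a pseudocount of 0.1, and 0 to 4.56 in GoF and 3.67 to 4.35 in LoF when a library was left out. An arm left with 1 library is assumed to vary like the other groups.

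Of all genes, 1501 were called in GoF against LoF, 298 in GoF against WT and 159 in LoF against WT. In the same order, the counts were 727, 15 and 1 with the block, 974, 11 and 14 with sex as a covariate, 994, 177 and 81 with the Y-linked LoF libraries alone, and 848, 186 and 0 with the Xist LoF libraries alone. With only the compared groups fitted, 0 were called in either contrast with WT, where 2334 (GoF) and 1569 (LoF) had an unadjusted p under 0.05, as 1479 did in LoF against WT with the Xist libraries alone. LoF against WT gave 83 with a pseudocount of 0.1, 53 without the filter and 54 without the trend. Leaving out a library gave 414 (without GoF 1) to 1400, 48 (without GoF 1) to 337, and 3 (without WT 2) to 135 calls. The cause of these changes was not tested, beyond the fewer libraries in some fits. Those include the block, where LoF 3 and LoF 4 drop out of the differences. Same-numbered libraries of different groups did not deviate together (correlations -0.007 to 0.03), so no pairing by number was seen. Mt1 was lowest in replicate 1 of each group, at 67.0, 81.0 and 21.7 FPKM in GoF, LoF and WT. Whether the numbers mark a shared batch was not tested.

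Some differences that did not pass turned sign. Ctnnb1 in GoF against LoF was -0.07 with quantile normalization, -0.04 with the Xist LoF libraries alone and -0.05 to 0.21 when a library was left out. Leaving out a library gave -1.48 to 0.27 for Mtf1 and -0.97 to 1.37 for Mt3 in GoF against LoF, -0.35 to 0.49 for Hmox1 in GoF against WT and -0.92 to 0.15 for Mtf1 in LoF against WT. With the block, Mtf1 was 0.38 and Fkbp5 -0.22 in LoF against WT. With sex as a covariate, Nr3c1 was 0.00 in GoF against WT.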
